A study of Mus musculus with 9 samples.

Results

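The genes described here make, store and take up histamine and serotonin, or build the high-affinity receptor for immunoglobulin E (IgE), with a related receptor gene and a transcription factor of mast cells added. They are Hdc, Slc18a2, Tph1, Slc6a4, Fcer1a, Ms4a2, Fcer1g, Cd200r3 and Mitf, taken by gene symbol, and the 9 genes stand among 18797 distinct symbols on the array, each with 1 transcript cluster (a set of probes summed per gene). The cells were bone marrow cells of C57BL/6 females aged 8 weeks that had been given 5-fluorouracil, a drug that kills dividing cells, at 150 mg/kg 6 days before harvest, and all 3 groups share this treatment. Lin-negative, Sca-positive, Kit-positive cells, a fraction rich in stem and progenitor cells, were infected with a retrovirus that carried the GATA2 variant R396Q with green fluorescent protein, GATA2 wild type with green fluorescent protein, or green fluorescent protein alone (the empty vector, MIE). Fluorescent cells were sorted after 72 h of culture, and 3 arrays were run per group. The labels give the tissue as blood and the cell type as HSC, whereas the protocol describes bone marrow. The GATA2 copies came from a viral vector on top of the cells' own genes, and the labels do not say whether the arrays of a group came from separate mice, so p-values measure only the spread between these samples. Values are log2 signals, a change is a difference of log2 means of 3 arrays, and SE is its standard error from limma, a linear model fitted to all 21072 clusters.

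Histamine is made from histidine by a single decarboxylase, and serotonin from tryptophan in a first step that limits the rate. A monoamine transporter loads both into granules, and a plasma membrane transporter takes serotonin up, in blood chiefly into platelets. Mast cells and basophils carry IgE on a receptor of an alpha chain that binds the antibody, a beta chain that amplifies the signal and paired gamma chains that pass it on. Crosslinking of that receptor empties the granules. Blood progenitors, mast cells and basophils depend on GATA2, which binds DNA through zinc fingers.

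With GATA2 wild type, 6 of the 9 genes rose against empty vector, namely Hdc, Slc18a2, Slc6a4, Fcer1a, Ms4a2 and Cd200r3, by 4.05-fold to 20.8-fold, and none fell (limma, Benjamini-Hochberg adjusted p under 0.05 over all clusters). In that comparison 8.99% of all clusters were called, 4.64% up and 4.35% down. With R396Q none of the 9 passed the same test against empty vector, where 1.23% of all clusters were called (0.660% up and 0.569% down). An unadjusted p under 0.05 was found for 3 of the 9. The share of all clusters under that unadjusted limit was not counted, here or for the lists below. In a fit that also took account of the replicate number Slc18a2 passed (limma adjusted p = 0.0259), where 1.66% of all clusters rose. Set against wild type, R396Q gave lower signals of the same 6 genes, where 5.75% of all clusters were called, 3.08% being lower with R396Q. Fcer1g, the gamma chain, did not pass the test in any comparison. The median change of the 9 genes was 2.96 for wild type minus empty vector, 0.30 for R396Q minus empty vector and -2.44 for R396Q minus wild type, beside -0.01, -0.01 and 0.00 over all clusters. The first pair of comparisons shares its control arrays, and the members were chosen with earlier results of these data known.

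GATA motifs stand near annotated starts of the 6 genes that changed and also of Tph1 and Mitf, which did not pass the test. The promoters of 5 of the 6 are printed with that of Fcer1g, which has none, so that the spacing can be compared. Each window runs from 250 bases before to 50 bases after a RefSeq start (build GRCm38.p6), reads from 5′ to 3′ on the gene's strand, and has capitals at every AGATAA and also every TGATAA, and at the forms that end in G, AGATAG and also TGATAG, on either strand.
Ms4a2, chr19:11623670-11623969, minus strand: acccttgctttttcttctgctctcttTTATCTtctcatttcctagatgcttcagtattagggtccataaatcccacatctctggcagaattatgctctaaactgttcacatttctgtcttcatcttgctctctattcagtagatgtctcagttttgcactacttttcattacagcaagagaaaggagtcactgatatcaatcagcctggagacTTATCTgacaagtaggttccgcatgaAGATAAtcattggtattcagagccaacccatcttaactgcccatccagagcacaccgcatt
Cd200r3, chr16:44943428-44943727, plus strand: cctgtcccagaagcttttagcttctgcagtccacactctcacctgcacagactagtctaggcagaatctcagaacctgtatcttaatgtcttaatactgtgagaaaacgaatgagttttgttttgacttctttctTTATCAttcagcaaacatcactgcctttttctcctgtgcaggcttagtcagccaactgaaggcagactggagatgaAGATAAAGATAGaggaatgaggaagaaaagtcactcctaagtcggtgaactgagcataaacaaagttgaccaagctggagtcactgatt
Fcer1a, chr1:173227180-173227479, minus strand: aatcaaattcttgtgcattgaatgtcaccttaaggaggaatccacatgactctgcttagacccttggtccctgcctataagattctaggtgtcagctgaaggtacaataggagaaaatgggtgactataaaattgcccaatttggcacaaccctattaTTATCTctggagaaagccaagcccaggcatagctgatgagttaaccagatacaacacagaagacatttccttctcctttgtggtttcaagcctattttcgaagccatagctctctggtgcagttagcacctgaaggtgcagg
Hdc, chr2:126618629-126618928, minus strand: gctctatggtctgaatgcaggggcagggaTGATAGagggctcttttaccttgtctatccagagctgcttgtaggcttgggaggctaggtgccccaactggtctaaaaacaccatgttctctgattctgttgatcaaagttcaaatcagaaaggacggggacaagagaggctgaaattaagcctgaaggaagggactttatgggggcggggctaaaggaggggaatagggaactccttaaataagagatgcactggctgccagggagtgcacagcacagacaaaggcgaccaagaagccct
Slc18a2, chr19:59260628-59260927, plus strand: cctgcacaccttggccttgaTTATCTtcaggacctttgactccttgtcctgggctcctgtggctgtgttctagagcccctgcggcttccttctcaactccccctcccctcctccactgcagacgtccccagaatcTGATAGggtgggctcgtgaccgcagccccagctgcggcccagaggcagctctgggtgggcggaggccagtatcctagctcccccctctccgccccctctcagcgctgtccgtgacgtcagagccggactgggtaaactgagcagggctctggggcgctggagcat
Fcer1g, chr1:171234300-171234599, minus strand: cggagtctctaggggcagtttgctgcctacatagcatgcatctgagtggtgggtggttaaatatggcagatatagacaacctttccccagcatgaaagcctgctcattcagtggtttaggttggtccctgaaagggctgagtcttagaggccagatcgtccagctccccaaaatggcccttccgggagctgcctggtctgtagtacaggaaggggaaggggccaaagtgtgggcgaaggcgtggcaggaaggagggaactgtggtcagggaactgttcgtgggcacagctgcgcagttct

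In the Ms4a2 window matches began 224, 37 and 11 bases before the start, the last on the gene's own strand. In the Cd200r3 window they began 115, 39 and 33 bases before it, the last 2 side by side without overlap. At least 3 matches stood in 1.76% of all 32851 windows of that length. Slc18a2 had 2 matches (at least 2 in 7.77% of windows), 230 and 115 bases before the start. Fcer1a, Hdc and Slc6a4 had 1 each, 92, 221 and 65 bases before the start, and at least 1 match stood in 29.8% of windows. Tph1 has 2 annotated starts, of which 1 had a match, and Mitf has 3, of which 2 had matches. In all, 8 of 9 genes had a match in some window. The E-box CATGTG, a form bound by MITF, stood in the Fcer1a window, 208 bases before the start, and in the Slc6a4 window, 48 bases before it, against 14.2% of all windows. CACGTG stood in none of the members' 12 windows (7.15% of all windows). A match is a run of letters and not a measured site of binding, and nothing about binding follows from a window with none.

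**Figure D1:**
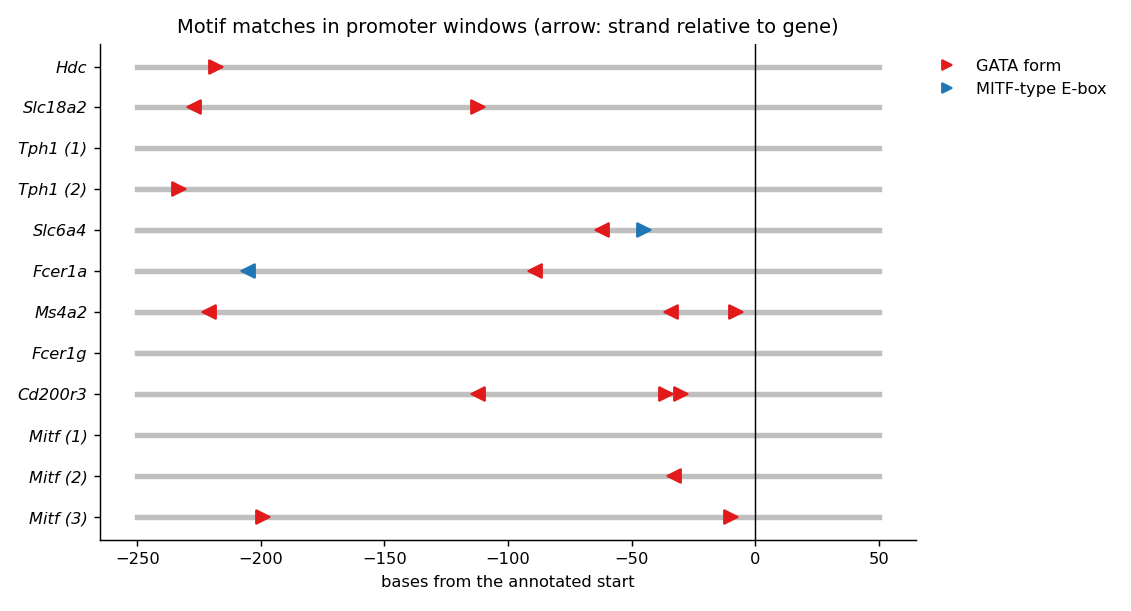
Positions of motif matches in the 12 promoter windows of the 9 genes, with bases from the annotated start on the x axis and 1 row per window (numbered where a gene has several starts). Red arrows are the 4 GATA forms and blue arrows CATGTG, pointing right on the gene's strand and left on the opposite strand. Ms4a2 and Cd200r3 have 3 red arrows each, and Fcer1g has none.

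Across the arrays the median log2 signal ran from 6.06 to 6.19 and the lower quartile from 4.54 to 4.60. All 81 signals of the 9 genes lay above the lower quartile of their array (0 below). Gata2 had means of 10.63 with R396Q, 11.22 with wild type and 9.73 with empty vector, and R396Q minus wild type was -0.59 (SE 0.14), with a limma adjusted p of 0.0633 and of 0.0222 with the replicate number as a block. The probes read the cells' own Gata2 and may also read the vector's copy, so these cannot be told apart. Empty vector array 2 was the lowest of its group for 8 of the 9 genes, all but Slc6a4. These are bulk signals, in which fewer cells of a type and less RNA per cell cannot be told apart.

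Hdc, histidine decarboxylase, had log2 signals of 12.40, 12.05 and 11.62 on the R396Q arrays, 14.88, 14.63 and 14.75 on the wild type arrays and 10.76, 10.07 and 11.00 on the empty vector arrays. The 3 groups did not overlap, with wild type highest, R396Q between and empty vector lowest. Wild type was 17.7-fold above empty vector (4.14, SE 0.28, limma adjusted p = 0.000442), and this rise ranked 29 by size among all clusters higher with wild type. R396Q was 6.65-fold below wild type (-2.73, SE 0.28, limma adjusted p = 0.00283). R396Q minus empty vector was 1.41 (SE 0.28, 95% confidence interval 0.75 to 2.07), which missed the threshold (limma adjusted p = 0.0787, unadjusted p = 0.00151). It passed after subtraction of array medians (limma adjusted p = 0.0328) and without the dimmest 50% of clusters (0.0348), and over all alternatives ran from 0.0328 to 0.242.

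Slc18a2, the granule transporter of histamine and serotonin, followed the same order. Its signals were 10.14, 10.26 and 10.29 with R396Q, 11.94, 12.19 and 12.43 with wild type and 8.64, 8.58 and 9.42 with empty vector, again without overlap of the groups. It rose 9.90-fold with wild type against empty vector (3.31, SE 0.23, limma adjusted p = 0.000534), and R396Q was 3.88-fold below wild type (-1.96, SE 0.23, adjusted p = 0.00505). R396Q minus empty vector was 1.35 (SE 0.23, interval 0.80 to 1.90), with a limma adjusted p of 0.0511. With the replicate number as a block that difference passed (limma adjusted p = 0.0259), and so it did without empty vector 3 (1.62, adjusted p = 0.0143), within a range of 0.0143 to 0.184 over all alternatives. Within the replicate numbers R396Q exceeded empty vector by 1.50, 1.68 and 0.87.

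Slc6a4, the serotonin transporter of the plasma membrane, showed the same order of groups. The signals were 6.12, 6.12 and 5.88 with R396Q, 7.73, 7.25 and 7.97 with wild type and 5.59, 5.67 and 5.63 with empty vector. The groups again did not overlap. Slc6a4 rose 4.05-fold with wild type (2.02, SE 0.18, limma adjusted p = 0.00117), and R396Q stood 3.06-fold below wild type (-1.61, SE 0.18, limma adjusted p = 0.00362). Against empty vector, R396Q differed by 0.41 (SE 0.18, interval -0.01 to 0.82, limma adjusted p = 0.425).

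Tph1, the tryptophan hydroxylase of tissues outside the brain, varied most among the wild type arrays. It had 5.33, 5.49 and 6.30 with R396Q, 7.65, 7.53 and 10.33 with wild type and 6.02, 5.10 and 6.30 with empty vector. Wild type array 3 stood far above the others of its group, yet all 3 wild type arrays lay above every other array. The mean was 8.50 ± 1.58 with wild type and 5.81 ± 0.62 with empty vector (SD, n = 3 each), a difference of 2.69 (SE 0.78, interval 0.85 to 4.54) that did not pass the test (limma adjusted p = 0.0868). With the replicate number as a block it passed (limma adjusted p = 0.0252), as it did without the dimmest 50% of clusters (0.0366), within a range of 0.0252 to 0.207 over all alternatives. With the block so did R396Q minus wild type, -2.80 (SE 0.78), at 0.0286 against 0.103 without the block. Without wild type array 3 the difference of wild type minus empty vector was 1.78. The R396Q mean differed from the empty vector mean by -0.10 (interval -1.94 to 1.74).

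**Figure D2:**
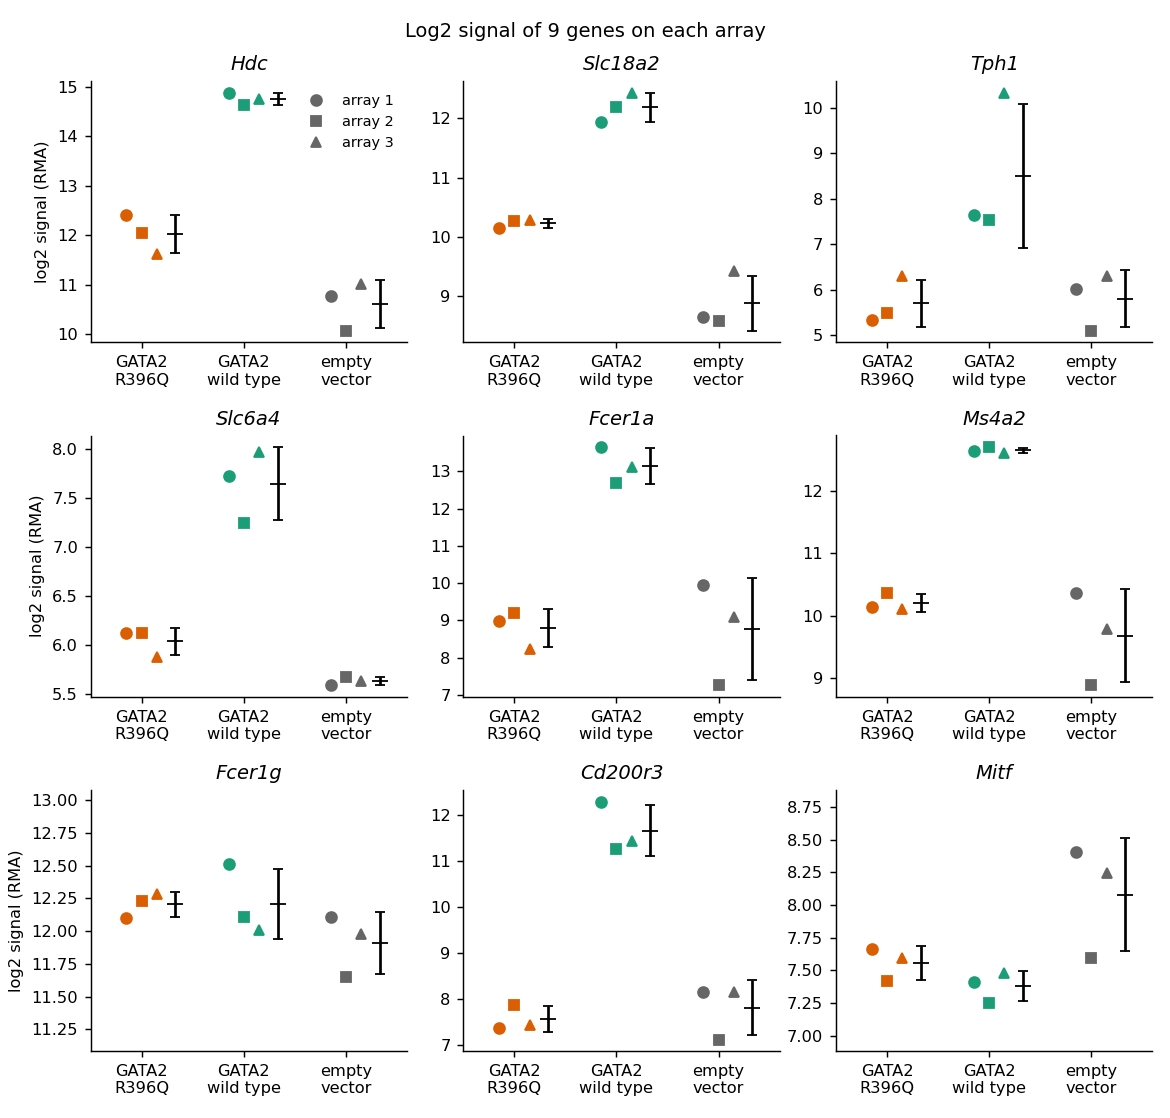
Log2 signal (y axis) of each gene on each of the 9 arrays, by group (x axis), with the replicate number as the point's shape and black bars at the mean ± SD of 3 arrays. Hdc, Slc18a2 and Slc6a4 have R396Q between wild type and empty vector, whereas for Fcer1a and Cd200r3 the R396Q and empty vector arrays overlap, and all wild type arrays stand above them.

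Fcer1a, the chain that binds IgE, rose 20.8-fold with wild type (4.38, SE 0.67, interval 2.79 to 5.97, limma adjusted p = 0.00953). Its signals were 8.99, 9.18 and 8.23 with R396Q, 13.64, 12.69 and 13.10 with wild type and 9.95, 7.26 and 9.08 with empty vector. The R396Q and empty vector arrays overlapped, and all wild type arrays lay above them. R396Q was 20.3-fold below wild type (-4.35, SE 0.67, limma adjusted p = 0.0132), a call lost by a small margin without R396Q 1 (adjusted p = 0.0508), R396Q 3 (0.0513) or wild type 1 (0.0520), within a range of 0.00376 to 0.0520 over all alternatives. Between R396Q and empty vector the difference was 0.03 (interval -1.56 to 1.63), and -0.72 without empty vector 2.

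Ms4a2, the beta chain, had the narrowest spread of the 9 genes among wild type arrays. It had 10.14, 10.37 and 10.10 with R396Q, 12.64, 12.69 and 12.61 with wild type and 10.37, 8.89 and 9.79 with empty vector. Wild type stood 7.81-fold above empty vector (2.96, SE 0.33, limma adjusted p = 0.00303), and R396Q 5.43-fold below wild type (-2.44, SE 0.33, limma adjusted p = 0.00849). Between R396Q and empty vector the change was 0.52 (SE 0.33, interval -0.27 to 1.31, limma adjusted p = 0.608), and 0.13 without empty vector 2. R396Q and empty vector overlapped.

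Fcer1g, the gamma chain that the IgE receptor shares with other Fc and lectin receptors, kept overlapping signals in all groups. It had 12.10, 12.23 and 12.29 with R396Q, 12.51, 12.11 and 12.01 with wild type and 12.11, 11.65 and 11.98 with empty vector. Wild type minus empty vector was 0.30 (SE 0.16, interval -0.09 to 0.68), R396Q minus empty vector 0.30 (interval -0.09 to 0.68) and R396Q minus wild type 0.00 (interval -0.39 to 0.38). These intervals allow a rise of up to 0.68 on the log2 scale against empty vector, and a p that misses the threshold does not show equal levels.

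Cd200r3, an activating receptor gene of mouse mast cells and basophils, rose 14.4-fold with wild type (3.85, SE 0.38, limma adjusted p = 0.00182). It had 7.36, 7.88 and 7.44 with R396Q, 12.29, 11.26 and 11.45 with wild type and 8.16, 7.12 and 8.16 with empty vector. The wild type arrays lay far above all others, while R396Q lay within the empty vector range. R396Q was 17.2-fold below wild type (-4.10, SE 0.38, limma adjusted p = 0.00209). The difference of R396Q from empty vector was -0.25 (interval -1.14 to 0.64), and -0.60 without empty vector 2.

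Mitf, a basic helix-loop-helix transcription factor of melanocytes and mast cells, was the sole member with its lowest mean under wild type and its highest under empty vector. It had 7.66, 7.42 and 7.59 with R396Q, 7.41, 7.25 and 7.48 with wild type and 8.41, 7.59 and 8.24 with empty vector. Wild type lay below empty vector on all arrays, by 1.62-fold (-0.70, SE 0.20), which missed the threshold (limma adjusted p = 0.0896) and passed with the replicate number as a block (limma adjusted p = 0.0274, a fall, where 9.41% of all clusters fell). Without empty vector 2 wild type minus empty vector was -0.94 (limma adjusted p = 0.00623) and R396Q minus empty vector -0.77 (adjusted p = 0.0345), against -0.52 (SE 0.20, adjusted p = 0.373) on all arrays. Over all alternatives the adjusted p ran from 0.00623 to 0.227 for wild type minus empty vector and from 0.0345 to 0.684 for R396Q minus empty vector.

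**Figure D3:**
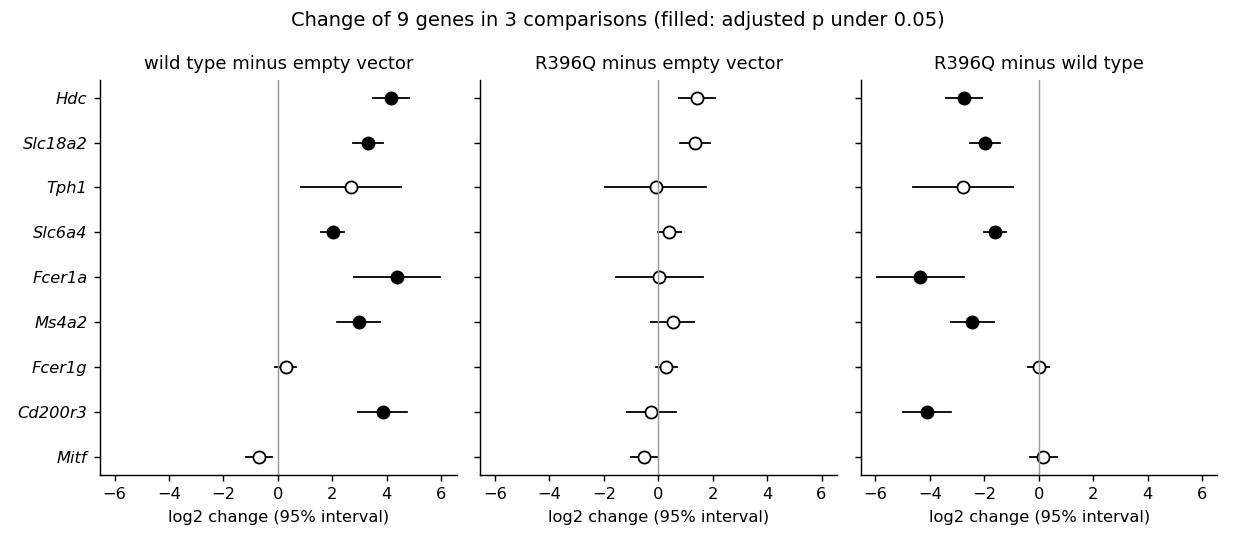
Change on the log2 scale (x axis) of each gene in the 3 comparisons, with 95% confidence intervals from limma and filled points where the adjusted p was under 0.05. In the middle panel no point is filled, and those of Hdc (1.41) and Slc18a2 (1.35) lie farthest to the right.

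Deviations from the group means were shared between groups by replicate number. With that number as a block, 7 of the 9 genes rose with wild type against empty vector, where 8.00% of all clusters rose. Mitf alone fell, where 9.41% of all clusters fell. With R396Q against empty vector 1 gene was called (Slc18a2, up, where 1.66% rose). Against wild type 7 genes were lower with R396Q and none higher, where 5.95% of all clusters were lower. Without the block the arrays of wild type lay above all those of empty vector for 7 genes and below them for 1, where 10.8% and 11.8% of all clusters did so. R396Q lay above empty vector on all arrays for 3 genes, Hdc, Slc18a2 and Slc6a4 (6.98% of clusters), and below wild type for 7 genes (9.59%).

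Other genes of amine handling were counted beside all clusters. Of 19 measured genes of synthesis, transport and breakdown, 3 rose with wild type against empty vector and none fell (median 0.06), 1 rose with R396Q (median 0.02), and 1 was lower with R396Q than with wild type (median 0.00), where 4.64%, 0.660% and 3.08% of all clusters were called in the same direction. With the block these counts were 6, 2 and 3, beside 8.00%, 1.66% and 5.95%. Gch1, the first enzyme in making the cofactor of tryptophan hydroxylases, rose with both forms. It had 9.99, 10.44 and 10.36 with R396Q, 10.31, 9.87 and 9.87 with wild type and 8.62, 7.34 and 7.70 with empty vector, so both GATA2 groups lay above all empty vector arrays. Wild type exceeded empty vector by 2.13 (SE 0.33, limma adjusted p = 0.00955) and R396Q by 2.37 (SE 0.33, limma adjusted p = 0.0245), the last being a call that failed when any 1 of 6 arrays was left out (the 3 of R396Q, wild type 2 or 3, empty vector 3), at up to 0.109. The other rises with wild type were those of Slc7a8, an amino acid transporter (1.27, SE 0.24), and Slc18a1, the sister of Slc18a2 (0.77, SE 0.14). The call of Slc7a8 needed each of wild type 2 and 3 and all 3 empty vector arrays (limma adjusted p of up to 0.0657 otherwise), and that of Slc18a1 needed wild type 2 and 3 and empty vector 1 and 2 (0.0642). Slc18a1 was also the gene lower with R396Q than under wild type (-0.66, SE 0.14), which failed when any array but empty vector 3 was left out (limma adjusted p of up to 0.123). For wild type minus empty vector, Ddc, the decarboxylase that completes serotonin synthesis (0.00, SE 0.05), and Hnmt, which methylates histamine (-0.24, SE 0.15), did not pass. Maoa, which breaks down serotonin, did not pass there either (-0.82, SE 0.43). Hnmt was lower with R396Q, at -0.66 against empty vector (SE 0.15, limma adjusted p = 0.117) and -0.43 against wild type (limma adjusted p = 0.200), without passing. Of 14 receptors for histamine and serotonin, Htr2a alone was called without the block, 1.16 higher with wild type than with empty vector (SE 0.27), and at -2.09 for R396Q minus wild type (SE 0.27, limma adjusted p = 0.00649). The first of these calls failed when an array other than wild type 1 or 3 was left out (limma adjusted p of up to 0.118). None of the 14 was called with R396Q against empty vector in limma without the block (2 at an unadjusted p under 0.05). The block added calls of the serotonin receptor genes Htr1b (1.22 for wild type minus empty vector, limma adjusted p = 0.0421) and Htr1a. Htr1a, which lay near the arrays' lower quartile, had changes of -0.13 for wild type minus empty vector (limma adjusted p = 0.0321 with the block), -0.39 for R396Q minus empty vector (0.0109) and -0.26 for R396Q minus wild type (0.00690).

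Genes that act below the IgE receptor were listed with Fcer2a, Lgals3 and Ms4a1, which are not signalling proteins below it, and split. Of 24 measured, 5 rose and 4 fell with wild type against empty vector (median 0.09), beside 4.64% and 4.35% of all clusters. With R396Q 1 rose and none fell against empty vector (median 0.16), beside 0.660% and 0.569%. Set against wild type, 1 was higher and 1 lower with R396Q (median 0.12). With the block these were 4 and 3. Between R396Q and wild type 5.75% of all clusters were called, 3.08% being lower with R396Q. With the block 2750 of 21072 clusters were called there, 1253 of them lower with R396Q (5.95% of all clusters). Lat, the adaptor of receptor signals, rose most of these, with 11.81, 12.22 and 12.52 under R396Q, 14.09, 14.06 and 14.31 under wild type and 10.55, 9.41 and 11.18 under empty vector. The groups did not overlap. Wild type minus empty vector was 3.77 (SE 0.43, limma adjusted p = 0.00315), and R396Q minus wild type -1.97 (SE 0.43, limma adjusted p = 0.0462), and the second call failed when an array other than empty vector 2 or 3 was left out (up to 0.152). Itpr2, a calcium release channel, rose by 2.13 (SE 0.20), the kinase gene Btk by 1.13 (SE 0.17), the adaptor Gab2 by 1.10 (SE 0.19) and the adaptor Lcp2 by 0.98 (SE 0.13) with wild type. Orai1, the calcium entry channel, was 0.67 lower with wild type than with empty vector (-0.67, SE 0.11) and 0.91 higher with R396Q than with wild type (SE 0.11). Plcg2, a phospholipase of this pathway, had a change of -0.97 with wild type (SE 0.13). Pik3r5 and the phosphatase gene Ptpn6 were also lower, calls that needed wild type 3 and empty vector 3 for both, wild type 1 for Pik3r5 and empty vector 1 for Ptpn6 (limma adjusted p of up to 0.0650 otherwise). Itpr2 was the gene that rose with R396Q against empty vector (1.33, SE 0.20, limma adjusted p = 0.0354), which failed when an array other than wild type 3 was left out (up to 0.143). Syk, the kinase that docks on the gamma chain, did not pass in any comparison (-0.28, SE 0.13, for wild type minus empty vector).

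Receptors that use the gamma chain were listed with Tyrobp, itself an adaptor chain, and with Pirb and Il3ra, so the list is mixed. Of 12 measured, 2 fell and none rose with wild type (median -0.80), beside 4.35% and 4.64% of all clusters. With the block 5 fell and 1 rose, beside 9.41% and 8.00%. None was called with R396Q against empty vector in limma (2 at an unadjusted p under 0.05, 2 down with the block, median -0.19). Over all clusters 1.23% were called in that comparison without the block. Clec4e, a lectin receptor of myeloid cells, differed by -3.05 for wild type minus empty vector (SE 0.44, limma adjusted p = 0.00770). Its neighbour Clec4d differed by -2.73 (SE 0.63), a call that failed when an array other than wild type 3 or empty vector 2 was left out (limma adjusted p of up to 0.130). With R396Q 1 gene, Clec4e, was higher than with wild type (2.81, SE 0.44, limma adjusted p = 0.0139). This call failed when R396Q 1 or 3 or wild type 1 was left out (up to 0.0569). In that comparison 5.75% of all clusters were called, 3.08% being lower with R396Q.

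The relatives of Cd200r3 were measured too. Cd200r4 had 8.22, 8.72 and 9.43 with R396Q, 12.23, 12.19 and 12.41 with wild type and 8.52, 7.80 and 9.85 with empty vector, so that wild type again stood alone. It was 3.56 higher with wild type than with empty vector (SE 0.53, limma adjusted p = 0.00846) and R396Q minus wild type was -3.49 (SE 0.53, limma adjusted p = 0.0126, up to 0.0515 and lost without R396Q 1 or 2). Cd200r2 was higher with wild type by 1.87 (SE 0.30). Of the 4 genes (Cd200 and 3 receptors) 2 rose with wild type, none was called with R396Q against empty vector (0 also at an unadjusted p under 0.05), and 3 were lower with R396Q than with wild type, where the calls of Cd200r1 and Cd200r2 failed with most arrays left out singly (all but empty vector 2 for Cd200r1 and all but empty vector 3 for Cd200r2, limma adjusted p of up to 0.151). The medians were 1.57, 0.04 and -1.46. Over all clusters 4.64% rose with wild type, 1.23% were called with R396Q against empty vector and 3.08% were lower with R396Q than wild type. These receptors are near relatives, and signal that their probes may share cannot be told apart here.

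Of 19 genes of granule content and release, 5 rose and none fell with wild type (median 0.35), beside 4.64% and 4.35% of all clusters. With the block 9 rose and 4 fell, beside 8.00% and 9.41%. Against empty vector 2 rose with R396Q (median 0.08), where 0.660% of all clusters rose. Lower with R396Q than with wild type were 3 (median -0.10), where 3.08% of all clusters were lower. Rab37, a small GTPase of secretory granules, rose by 1.74 with wild type (SE 0.12, limma adjusted p = 0.000442) and by 1.08 with R396Q (SE 0.12, limma adjusted p = 0.0120, and 0.0616 without R396Q 2). Snap23, a membrane fusion protein that mast cells need for release, rose by 1.40 with wild type (SE 0.12) and stood below wild type in R396Q cells (-1.10, SE 0.12). Stx3, another fusion protein, rose by 1.53 with wild type (SE 0.22) and by 1.80 with R396Q (SE 0.22), the R396Q call failing when R396Q 1 or empty vector 1 or 3 was left out (limma adjusted p of up to 0.0572). Srgn, the proteoglycan core that holds amines in granules, rose by 0.35 with wild type (SE 0.06).

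Of 15 transcription factor genes, the Mitf relatives Tfe3, Tfeb and Tfec and other factors, 4 rose and 2 fell with wild type. None of those that rose was such a relative. Over all clusters 4.64% rose and 4.35% fell. With R396Q against empty vector 2 rose and 1 fell, beside 0.660% and 0.569% of all clusters. Gata2 itself was among those that rose in both and so was possibly read from the vector. The Gata2 call with R396Q (limma adjusted p = 0.0394) failed when an array other than wild type 1 or 3 was left out, at up to 0.155. Tfec, a close relative of Mitf, had the widest change of the list. It had 10.03, 10.21 and 8.95 with R396Q, 7.72, 7.36 and 7.43 with wild type and 12.87, 13.22 and 13.20 with empty vector, and the groups did not overlap. Wild type minus empty vector was -5.59 (SE 0.32, limma adjusted p = 0.000291), R396Q minus empty vector -3.37 (SE 0.32, limma adjusted p = 0.00767) and R396Q minus wild type 2.23 (SE 0.32, limma adjusted p = 0.0106). In fits on only the groups compared the R396Q differences missed the threshold (limma adjusted p = 0.0582 against empty vector and 0.0550 against wild type). Runx1, a factor of blood progenitors, rose by 1.20 with wild type (SE 0.17) and by 1.13 with R396Q (SE 0.17), a call that for R396Q failed when an array other than wild type 3 was left out (limma adjusted p of up to 0.143). Tfe3, a further relative, did not pass (0.19, SE 0.10, for wild type minus empty vector). The medians of the list were 0.09 for wild type minus empty vector, -0.02 for R396Q minus empty vector and 0.09 for R396Q minus wild type.

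**Figure D4:**
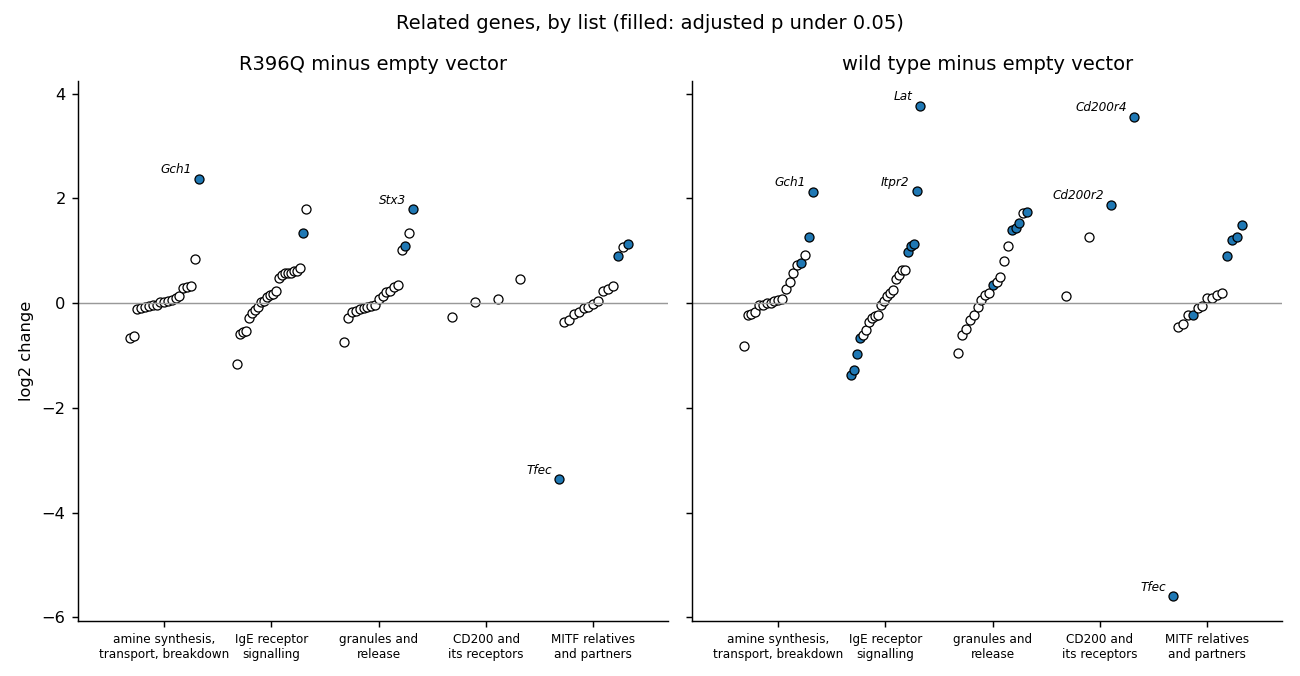
Change on the log2 scale (y axis) of each measured gene in 5 lists of related genes (x axis), for R396Q minus empty vector on the left and wild type minus empty vector on the right, with filled points at an adjusted p under 0.05. Lat (3.77) and Cd200r4 (3.56) stand highest on the right, and Tfec lies lowest in both panels (-3.37 and -5.59). The IgE list also holds Fcer2a, Lgals3 and Ms4a1, and the MITF list also holds transcription factor genes that are not relatives of Mitf.

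Marker genes of the cells that carry these molecules moved in the same arrays. Over all clusters 4.64% rose and 4.35% fell with wild type against empty vector, and 0.660% rose and 0.569% fell with R396Q. Between R396Q and wild type 5.75% of all clusters were called, with 3.08% lower with R396Q. With the block 2750 of 21072 clusters were called there, 1253 of them lower with R396Q (5.95% of all clusters). Of 20 measured mast cell markers, 4 rose and 2 fell with wild type against empty vector (median 0.71), 1 rose and 1 fell with R396Q (median 0.19), and 2 were higher and none lower with R396Q than with wild type (median -0.15, with 2 higher and 3 lower under the block). The mean log2 signal of the list ran from 7.00 to 7.18 over the R396Q arrays, 6.90 to 8.15 over the wild type arrays and 6.56 to 7.08 over the empty vector arrays. Those that rose with wild type were the tryptase gene Tpsg1 (2.35, SE 0.55), the carboxypeptidase gene Cpa3 (1.68, SE 0.40), Sytl3 (1.23, SE 0.26) and the granule membrane gene Cd63 (0.72, SE 0.10). Those that fell were Kit, the stem cell factor receptor that mast cells keep (-2.81, SE 0.08), and the prostaglandin synthase gene Hpgds (-1.62, SE 0.33). Without single arrays the calls of Cd63 and Kit held, that of Cpa3 failed without any 1 of the 9 arrays (limma adjusted p of up to 0.133), those of Tpsg1 and Sytl3 without any but wild type 1 or 2 (up to 0.115), and that of Hpgds without wild type 1 or 2 or empty vector 1 or 3 (up to 0.0875). With R396Q Kit fell (-1.81, SE 0.08) and Ltc4s, the leukotriene C synthase gene, rose (0.60, SE 0.07), the rise failing without any 1 R396Q array or empty vector 1 or 3 (limma adjusted p of up to 0.0657). Both were higher with R396Q than under wild type, Kit by 1.00 (SE 0.08) and Ltc4s by 0.61 (SE 0.07). Ltc4s lay below the lower quartile on 6 arrays, namely all those of wild type and empty vector, and only slightly above it with R396Q. Mrgprb1 and Mrgprb2, receptor genes of connective tissue mast cells, lay below the lower quartile on all 9 arrays. Of 19 basophil markers 11 rose and 1 fell with wild type (median 1.64), 2 rose and 1 fell with R396Q (median 0.28), and 7 were lower with R396Q than with wild type (median -1.12). The mean of that list ran from 8.93 to 9.12 with R396Q and 10.05 to 10.71 with wild type. With empty vector it ran from 8.15 to 8.81, and the groups did not overlap. Not all genes of the list are particular to basophils. The list holds Itga2b, named below as a platelet integrin, and its gene that fell is also among the monocyte and macrophage markers. Mcpt8, the basophil protease that defines those cells in mice, rose by 1.32 with wild type (SE 0.22), a call that needed wild type 1 (limma adjusted p = 0.0511 without it).

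Platelet precursors carry Slc6a4 and Slc18a2 as well. Beside the next lists, 4.64% of all clusters rose and 4.35% fell with wild type. Between R396Q and wild type 5.75% were called, 3.08% being lower with R396Q. With R396Q against empty vector 0.660% rose and 0.569% fell. Of 12 megakaryocyte and platelet markers 9 rose and none fell with wild type (median 2.79), none was called with R396Q against empty vector in limma (4 at an unadjusted p under 0.05, 1 up with the block, median -0.14), and 6 were lower with R396Q than with wild type (median -2.02). The mean of the list ran from 7.78 to 8.64 with R396Q, 10.24 to 10.90 with wild type and 7.87 to 8.33 with empty vector. Of 14 monocyte and macrophage markers, cells that also use Fcer1g, 8 fell and none rose with wild type (median -2.85), 5 fell and none rose with R396Q against empty vector (median -1.28), and 3 were higher and 1 lower with R396Q than under wild type (median 0.76), with list means of 8.35 to 8.72 under R396Q, 7.40 to 8.23 under wild type and 9.51 to 10.70 under empty vector. Of 12 erythroid markers 9 rose with wild type (median 2.93), none was called with R396Q against empty vector in limma (0 also at an unadjusted p under 0.05 and with the block), and 8 were lower under R396Q than under wild type, with list means of 6.10 to 6.32 with R396Q, 8.65 to 9.71 with wild type and 5.96 to 6.14 with empty vector. Not all calls held with each array left out in turn. With wild type against empty vector, 6 of 9 platelet, 5 of 8 monocyte and 7 of 9 erythroid calls held. With R396Q against empty vector 2 of 5 monocyte calls held. Between R396Q and wild type 3 of 6, 0 of 4 and 6 of 8 held, in the same order.

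Markers of further cells moved in these arrays too. Over all clusters 4.64% rose and 4.35% fell with wild type (8.00% and 9.41% under the block). With R396Q against empty vector 0.660% rose and 0.569% fell. Between R396Q and wild type 5.75% were called, 3.08% being lower with R396Q. With the block 2750 of 21072 clusters were called there, 1253 of them lower with R396Q. Of 15 neutrophil markers 5 fell and none rose with wild type (median -3.78, with 11 down under the block), 1 fell with R396Q against empty vector (median -0.78), and 3 were higher with R396Q than under wild type (median 3.03, with 10 under the block). Their list means ran from 9.22 to 12.41 with R396Q, 6.82 to 9.57 with wild type and 10.16 to 12.89 with empty vector. Of the 5 neutrophil calls with wild type, those of Mmp8 and Csf3r held without any 1 array. Of 8 eosinophil markers 1 rose with wild type, the lipoxygenase gene Alox15 (5.16, SE 0.70), and 4 rose with the block (median 2.89). None of the 8 was called with R396Q against empty vector in limma (1 at an unadjusted p under 0.05, 1 up with the block). Their list means ran from 6.26 to 8.97 with R396Q, 7.69 to 10.85 with wild type and 6.10 to 7.80 with empty vector. Of 8 stem and progenitor markers, Kit among them, 1 rose and 3 fell with wild type, 2 rose and 1 fell with R396Q against empty vector, and 3 were higher and 1 lower with R396Q than under wild type. Cd34, a surface marker of progenitors, differed by -4.63 for wild type minus empty vector (SE 0.13) and by 4.22 for R396Q minus wild type (SE 0.13). Of 9 dendritic cell markers 1 rose and 5 fell with wild type, and of 11 lymphoid and natural killer markers none was called in that comparison in limma (0 also at an unadjusted p under 0.05 and with the block). Of the 6 dendritic calls 1 held with each array left out in turn. The part of these cell types in the signals of the 9 genes was not tested.

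The symbols whose profiles over the 9 arrays lay closest to each member were found by the root mean square difference after subtraction of each gene's own mean, among 18782 symbols. Closest to Fcer1a were Cd200r3 (0.49 on the log2 scale), Emc9 (0.52) and the erythroid marker Klf1 (0.62). Fcer1a itself had an SD of 2.31 over the arrays. Closest to Cd200r3 were Emc9 (0.28), the red cell ammonium channel gene Rhag (0.34) and the lipid transporter gene Abcb4 (0.37). Closest to Hdc were Acss1 (0.42), Gfi1b, a repressor of erythroid cells and megakaryocytes (0.42), and the carbonic anhydrase gene Car2 (0.48). Slc18a2 had Alox5, a lipoxygenase of leukotriene synthesis (0.22), and Itga2b, a platelet integrin (0.27), as its nearest. Ms4a2 had Asb2 (0.32) and Acss1 (0.33), Slc6a4 had Ppp6r2 (0.20) and Dcxr (0.21), and Tph1 had Padi3 (0.46) and Npl (0.52). Fcer1g and Mitf varied little (SD of 0.24 and 0.39), so that many genes lie near them, the closest being Mif4gd (0.08) and Gas7 (0.09). All 9 arrays were used for this ranking, and it says nothing about shared function or control.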

How the data were processed

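The deposited table holds 1 log2 signal per transcript cluster and array, which the authors obtained by robust multiarray averaging (RMA); the submitters' processing notes name Affymetrix Expression Console, and its version and the genome build are not given in the sources used here. RMA shrinks differences among dim probes, so the folds of low signals may be understated. Of 21072 clusters, 18992 had 1 symbol, 1390 several and 690 none, and 418 symbols were brought up to date through gene identifiers in a RefSeq table (GRCm38.p6). Each of the 9 genes had 1 cluster. For related genes with several clusters, the one with the highest mean was used.

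All clusters were tested with limma 3.58.1 in R 4.3.3 (1 mean per group over 9 arrays, empirical Bayes, 2-sided, Benjamini-Hochberg over 21072 clusters within each comparison, threshold 0.05), and the fit was tested on simulated data. The members and lists were chosen with earlier results of these data known. Named genes are the 9 members, members of the lists that were called or had the smallest p, and the nearest 3 profiles per member. Ddc, Hnmt, Maoa, Syk, Tfe3, Mrgprb1 and Mrgprb2 fall outside that rule and were named for their roles after their values were seen. Arrays with the same replicate number in different groups had deviations correlated at 0.451 to 0.693 (9 pairs), and those with different numbers at -0.537 to -0.0900, so an alternative fit has the number as a block. Other alternatives were fits on only the groups compared, trend and robust options, array weights, median subtraction, quantile normalization, filters on dim clusters, the mean over the clusters of each symbol and the omission of each array in turn. With 3 arrays per group, precision is limited by their number. Positions refer to the RefSeq promoter table alone.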

Additional observations from a re-analysis of the deposited data

How the results depend on the processing

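Over 486 refits of the 27 changes of members, 451 kept their direction and side of the threshold, 20 passed where they had not, 3 no longer passed and 12 turned in sign. Of the 12 changes that passed, 213 of 216 refits still passed, the exceptions being Fcer1a for R396Q minus wild type as given above. The count of members called was 6 to 8 for wild type against empty vector and 5 to 7 for R396Q against wild type under all alternatives. For R396Q against empty vector it was 0, and 1 with the replicate block, with trend and robust options, with array weights, after quantile normalization or without the dimmest 30%, and 2 after median subtraction or without the dimmest 50%. It was 0 to 1 when 1 array was left out, with 1 without empty vector 2 (Mitf) or 3 (Slc18a2). The block changed no other call of a member than those of Tph1, Mitf and Slc18a2. All turns of sign were of changes near 0 that did not pass. For R396Q minus empty vector, Fcer1a was -0.10 with array weights and -0.72 to 0.63 without 1 array, and Tph1 -0.45 to 0.14 without 1 array. For R396Q minus wild type, Fcer1g was 0.026 with array weights, 0.053 after median subtraction and -0.10 to 0.15 without 1 array. Of 155 calls of list genes, 85 were kept without any 1 array. Over all clusters, the calls for wild type against empty vector numbered 1894, and 3667 with the block and 1026 on the groups compared alone. They numbered 259, 632 and 94 for R396Q against empty vector and 1211, 2750 and 772 for R396Q against wild type. In fits on only the groups compared, the named calls that missed the threshold were Gch1, Slc18a1, Htr2a, Gab2, Pik3r5, Ptpn6, Clec4d, Cd200r2, Cpa3, Tpsg1, Sytl3, Hpgds and Mcpt8 for wild type against empty vector, Gch1, Itpr2, Rab37, Stx3, Tfec and Runx1 for R396Q against empty vector, and Slc18a1, Clec4e and Tfec for R396Q against wild type. The cause of these differences was not tested. Signals near the lower quartile of an array, as for several histamine and serotonin receptors, have no shown level above background.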
